A study of Rattus norvegicus with 6 samples.

Results

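The stretch described here lies on rat chromosome 13, 1 to 2.7 Mb above a gene promoter that served as the viewpoint of a 4C-seq experiment. Its members are the EcoRI restriction fragments that start from 56570181 to 58275224 in genome build rn5, and they were chosen by position alone. There were 380 of them, of 34455 fragments on chromosome 13 and 794445 in all tables. Cultured endothelial cells of the rat heart were used at passage 2, with cells of both sexes pooled, after fixation in 2% formaldehyde for 10 min. The SS libraries came from SS/JrHsdMcwi, the Dahl salt-sensitive rat. The SS13BN libraries came from SS-13BN/Mcwi, a consomic strain on the SS background whose chromosome 13 is that of the Brown Norway rat, so that the promoter and the whole stretch differ in origin between the strains. The comparison asks whether the origin of this chromosome alters the contacts that the promoter makes.

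In 4C-seq, chromatin is fixed and cut, and ends that lay close together in the nucleus are ligated. The fragments joined to the viewpoint are then amplified and sequenced, so a fragment with more reads was ligated to the promoter more often or was amplified better. Contact frequency along a chromosome generally falls with distance from the viewpoint, because the chromatin fibre behaves as a flexible polymer. Distal regulatory elements, insulator sites and the borders of topological domains are the features for which departures from this decay are usually sought. The gene content and the sequence of the stretch were not analysed here.

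Of 3 libraries per strain, replicates 1 and 2 carried read-based scores in the stretch, and the tables of replicate 3 list chromosome 13 at 0. Results therefore rest on 4 libraries, 2 per strain. Reads were recovered from the deposited scores over a zone of 1464 fragments, from 52028242 to 58275224, that surrounds the viewpoint at 55570181. The zone held 188887 (SS 1), 370530 (SS 2), 180973 (SS13BN 1) and 144406 (SS13BN 2) reads. Of these, 174506, 354193, 165896 and 136560 in the same order lay more than 10 kb from the viewpoint, and these totals were used for shares and for scaling. In SS13BN 2, the score of the fragment at 57407684 was 14.0 too low for that library's scores to sum to 0. With 14.0 added its reads came out whole, at 9727, whereas the listed score gave 4792. The SD of the reads was then 352.51, equal to the SD that the step between scores gives, against 261.3 with the listed value. The higher value is used below, and results that rest on this fragment are also given without it. The labels name no separate animals or cultures for the libraries of a strain, so a p-value here reflects the spread among libraries and that spread may be technical.

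Most fragments of the stretch had been ligated to the promoter at least once in every library. A fragment with at least 1 read is called captured. SS 1 captured 331 of 380 fragments, which is 87.1% (95% Wilson interval 83.4% to 90.1%). SS 2 captured 351, or 92.4% (89.3% to 94.6%). SS13BN 1 captured 327, or 86.1% (82.2% to 89.2%), and SS13BN 2 captured 343, or 90.3% (86.9% to 92.9%). The intervals cover counting error only, since PCR reads without molecular identifiers are not independent molecules. The strains overlapped, with means of 89.7% ± 3.72 (SD, n = 2) in the SS libraries and 88.2% ± 2.98 (SD, n = 2) in the others. The difference of SS13BN minus SS was -1.58 percentage points (exact two-sided permutation test, p = 0.667). With 2 libraries against 2, the smallest p that this test can give is 0.333. Without SS 2 the difference was 1.05 points and without SS13BN 1 it was 0.526 points, so its sign rests on single libraries.

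Reads per fragment were low and very uneven. The median was 12 (SS 1), 37 (SS 2), 12 (SS13BN 1) and 13 (SS13BN 2) reads, while the most read fragment had 2054, 2863, 1449 and 9727. The 10th percentile was 0 (SS 1), 2 (SS 2), 0 (SS13BN 1) and 1 (SS13BN 2) reads, and the 90th percentile 55.1, 154, 59.2 and 51.1. Fragments with at least 100 reads numbered 9 and 78 in the SS libraries and 17 and 6 in the SS13BN libraries. SS 2 was also the library with the most reads in the zone. At the edges of the stretch the values were ordinary. The fragment just below its lower bound, from 56568695 to 56573685, had 80, 36, 60 and 8 reads in SS 1, SS 2, SS13BN 1 and SS13BN 2. The first inside, from 56573686 to 56577802, had 20, 268, 7 and 73. The last inside, from 58275145 to 58275224, is 80 bp long and had 0, 3, 4 and 5 reads. Above it the tables of SS 2, SS13BN 1 and SS13BN 2 hold another kind of score. In SS 1 scores of whole reads run on to 58294970, and reads above the stretch were not used.

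**Figure D1:**
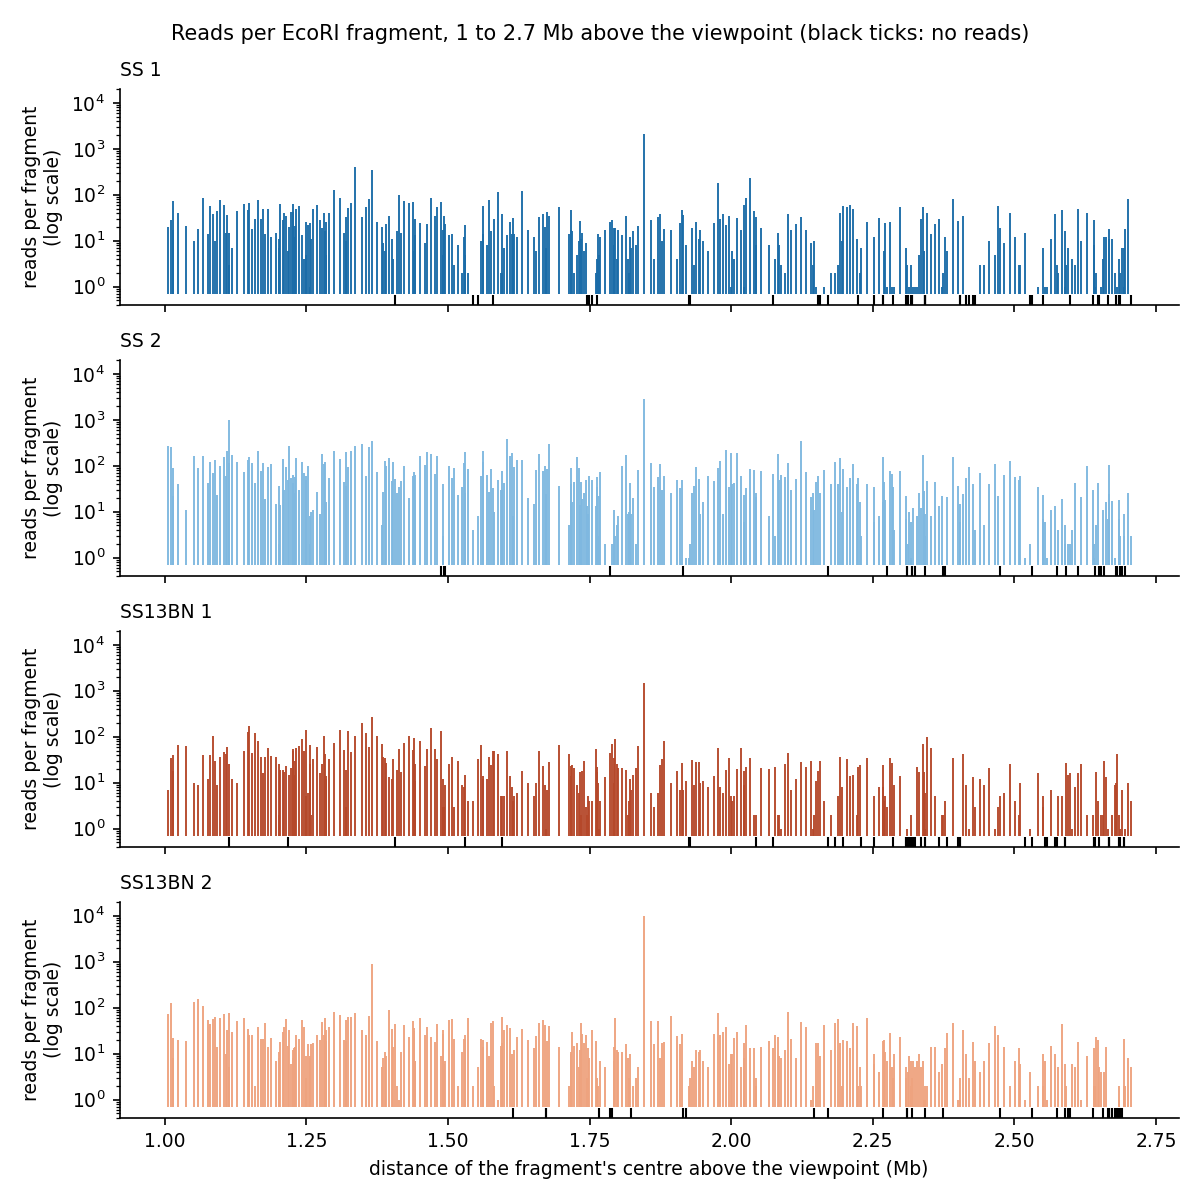
Reads per EcoRI fragment (log scale) against the distance of the fragment's centre above the viewpoint (Mb), with 1 panel per library and black ticks for fragments without reads. A single fragment at 1.84 Mb stands above all others in each library, with 2054, 2863, 1449 and 9727 reads, and ticks are denser beyond 2 Mb.

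A single fragment dominated the stretch. It runs from 57407684 to 57425902, is 18219 bp long and lies 1.84 Mb from the viewpoint. It had 2054 (SS 1), 2863 (SS 2), 1449 (SS13BN 1) and 9727 (SS13BN 2) reads, the highest value of the stretch in all 4 libraries. The strains overlapped in raw reads, since SS13BN 1 was below both SS libraries and SS13BN 2 above them. Next in the stretch came 404 (SS 1), 997 (SS 2), 265 (SS13BN 1) and 899 (SS13BN 2) reads. Of the reads of the stretch, the fragment held 19.2% (SS 1), 11.1% (SS 2), 14.0% (SS13BN 1) and 53.9% (SS13BN 2). Of the reads of the whole zone beyond 10 kb it held 1.18%, 0.808%, 0.873% and 7.12% in the same order. Its rank among the 1464 fragments of the zone was 13, 19, 22 and 1.

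The elevation was confined to that fragment at the resolution of EcoRI sites. The median of its 10 nearest neighbours, 5 on each side, was 14 (SS 1), 38.5 (SS 2), 13.5 (SS13BN 1) and 9 (SS13BN 2) reads. The fragment thus had 147, 74.4, 107 and 1081 times the reads of its neighbours. The adjoining fragment below it had 21 (SS 1), 80 (SS 2), 64 (SS13BN 1) and 5 (SS13BN 2) reads, and the one above it 28, 113, 6 and 51. None of the 10 neighbours exceeded 113 reads in any of these libraries. In reads scaled to equal totals and averaged over libraries, its ratio to the neighbours was 251. That was the highest among 1395 fragments of the zone whose neighbours had a median of at least 1 scaled read, and the next highest was 37.3, in a fragment on the other side of the viewpoint. Of the 9 fragments of the zone with a ratio over 10, 2 lay in the stretch.

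Its length was not shared with high reads elsewhere in the stretch. The stretch has 13 fragments of at least 15 kb. The other 12 had a median of 23.5 (SS 1), 45.5 (SS 2), 21 (SS13BN 1) and 18 (SS13BN 2) reads. Their highest values were 82, 162, 79 and 67 in that order, all far below those of the fragment at 1.84 Mb. Whether its sequence maps uniquely was not tested. Fold differences between libraries at this fragment rest on 1 library: without SS13BN 2, the remaining values span 1449 to 2863 reads.

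**Figure D2:**
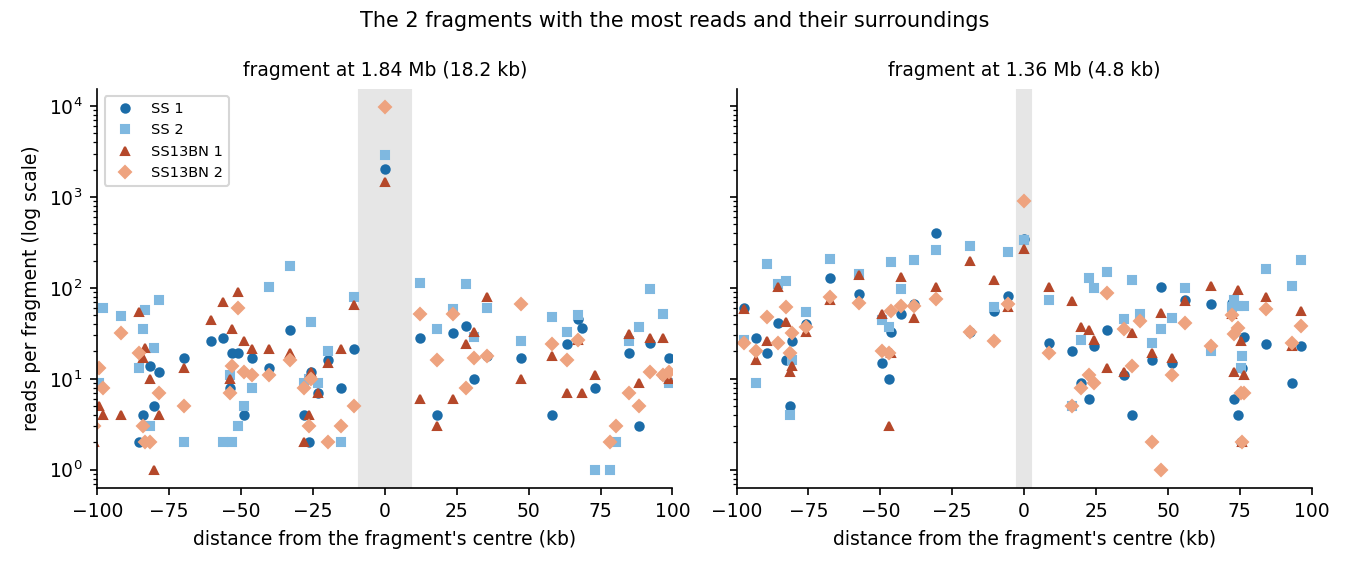
Reads per fragment (log scale) within 100 kb of the fragments at 1.84 Mb (left) and 1.36 Mb (right), plotted at each fragment's centre, with 1 marker per library and grey bars for the extent of the central fragment. Fragments without reads are not drawn. On the left the central fragment alone is high, with adjoining fragments at 5 to 113 reads, and on the right several fragments on the side nearer the viewpoint also lie above those on the far side.

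The second highest fragment lay in a broader rise. It runs from 56934199 to 56939021, is 4823 bp long and lies 1.36 Mb from the viewpoint. It had 349 (SS 1), 340 (SS 2), 265 (SS13BN 1) and 899 (SS13BN 2) reads. SS13BN 2 was the highest library here as well, and the other 3 were close together in raw reads only. In reads scaled to equal totals the values were 416 (SS 1), 199 (SS 2), 332 (SS13BN 1) and 1368 (SS13BN 2). The median of its 10 neighbours was 29, 113.5, 66 and 22.5 reads in the same order, and its rank within the stretch was 3, 5, 2 and 2. The fragment from 56900144 to 56911603, at 1.33 Mb, had 404, 262, 103 and 76 reads. Here both SS libraries were above both SS13BN libraries in raw reads.

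Of the 10 fragments with the highest mean scaled reads, 5 more lay between 1 and 1.4 Mb, and 3 of these were in or beside this rise. The fragment at 56865145 had 128 (SS 1), 210 (SS 2), 73 (SS13BN 1) and 79 (SS13BN 2) reads. That at 56872893 had 86, 141, 140 and 68 reads in the same order, and the strains overlapped in raw reads but not in scaled reads, where both SS13BN libraries were higher. The fragment at 56911604 had 33, 292, 196 and 33 reads, which is high in SS 2 and SS13BN 1 only. Outside the rise, the fragment at 56682984 owed its place to 1 library, with 997 reads in SS 2 against 15, 26 and 77 in the others. The fragment at 56577803, close to the lower bound, had 28, 261, 35 and 129 reads. The remaining 2 were the fragment at 57034404, with 87, 177, 153 and 23 reads, and the fragment at 57544212, with 177, 87, 58 and 78. The latter was the only one of the 10 beyond 1.9 Mb.

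By contrast with its immediate neighbours, the fragment from 57906113 to 57910965, at 2.34 Mb, stood second with a ratio of 15.2. It had 54 (SS 1), 174 (SS 2), 69 (SS13BN 1) and 7 (SS13BN 2) reads, so 3 of 4 libraries were high for this distance. The fragment at 57912268, close by, had 41, 46, 99 and 2 reads and a ratio of 9.76. The fragment at 56934199 followed with 8.87, and the fragment at 57858749, 19657 bp long, had 55, 75, 14 and 23 reads and a ratio of 8.64.

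Reads fell with distance across the stretch in every library. A line through log2 of the mean reads per fragment plus 1, in 17 windows of 100 kb, against log2 distance had a slope of -1.48 (SS 1), -1.90 (SS 2), -2.12 (SS13BN 1) and -1.97 (SS13BN 2). Both SS13BN slopes were steeper than both SS slopes. With the median in place of the mean the strains overlapped, with slopes of -2.32, -2.57, -3.03 and -2.33 in the same order and a difference of -0.23 (exact p = 0.667). The mean slope was -1.69 ± 0.30 (SD, n = 2) in the SS libraries and -2.04 ± 0.11 (SD, n = 2) in the SS13BN libraries, a difference of -0.35 (exact two-sided permutation test, p = 0.333, the smallest that 2 against 2 allow). The difference was -0.14 without SS 1 and -0.57 without SS 2. Without the fragment at 1.84 Mb, which was left out after its values were seen, the slopes were -1.53, -1.94, -2.16 and -2.06.

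Beyond 2 Mb, capture was lower as well as reads. From 1 to 2 Mb, the libraries SS 1, SS 2, SS13BN 1 and SS13BN 2 captured 208, 214, 212 and 210 of 219 fragments, with medians of 18, 53, 21 and 19 reads. From 2 to 2.7 Mb they captured 123, 137, 115 and 133 of 161 fragments, or 76.4%, 85.1%, 71.4% and 82.6%, with medians of 4, 18, 4 and 6 reads. Every library was lower in the farther portion in both measures. Mean reads per fragment in the nearer portion, without the fragment at 1.84 Mb, exceeded those in the farther portion by factors of 2.11 (SS 1), 2.35 (SS 2), 3.33 (SS13BN 1) and 2.77 (SS13BN 2). Median fragment lengths were 3429 and 2842 bp in the nearer and farther portions, and capture varied with length, as given below. The part of length in this difference was not tested.

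**Figure D3:**
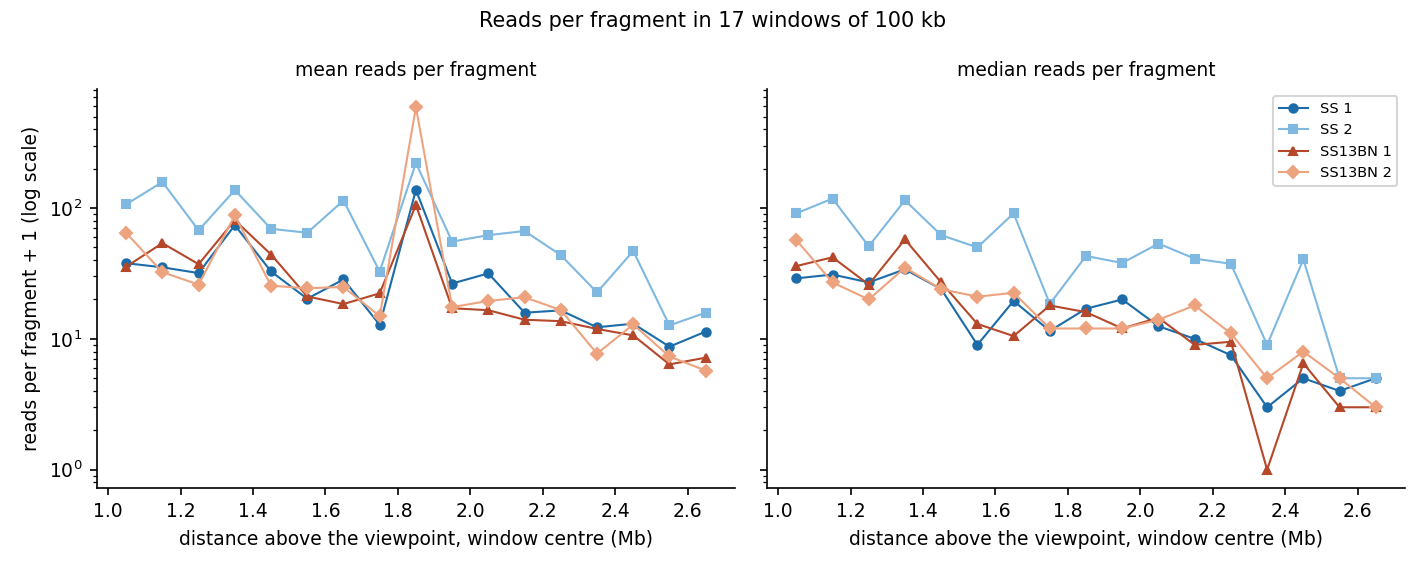
Mean (left) and median (right) reads per fragment plus 1, on a log scale, in 17 windows of 100 kb against the distance of the window's centre above the viewpoint (Mb), with 1 line per library. The mean peaks at 1.8 to 1.9 Mb in all 4 libraries, where the median does not, and the median drops at 2.3 to 2.4 Mb, to 0 reads in SS13BN 1.

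Departures from the decay line named the windows that were high or low for their distance, without adjustment for fragment length. A residual is given here in log2 units, as the measured log2 mean minus the fitted line of that library. The window at 1.8 to 1.9 Mb had the highest mean residual, 2.92, with 2.58 (SS 1), 2.01 (SS 2), 2.37 (SS13BN 1) and 4.72 (SS13BN 2). It holds the dominant fragment, without which its mean residual was 0.05. The window at 1.3 to 1.4 Mb came next, at 1.01, 0.46, 1.02 and 1.08 and a mean of 0.89 ± 0.29 (SD, n = 4). Its mean reads per fragment were 72.9, 136, 79.8 and 86.8 in the same order, and it lay above the line in all 4 libraries. Its residual was 1.05 without the dominant fragment, which lies in another window and so changes only the fitted line. When medians replaced means it was 0.64 ± 0.29 (SD, n = 4), above the line in all 4 libraries, so by medians this rise was not that of a single fragment. By means, the fragment at 56934199 held 899 of the window's 1563 reads in SS13BN 2. The residual without that fragment was not computed. The third was the window at 2.0 to 2.1 Mb, at 0.68, 0.46, 0.01 and 0.09 with a mean of 0.31, which is near the line in both SS13BN libraries. By medians this window had the highest residual of the 17, 0.72 ± 0.30 (SD, n = 4), above the line in all 4 libraries, and by means without the dominant fragment it had 0.50, also above the line in all 4.

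The lowest windows by mean residual lay both toward the far end and nearer the viewpoint. The window at 2.5 to 2.6 Mb was below the line in every library, at -0.72, -1.23, -0.70 and -0.70 with a mean of -0.84. The window at 1.7 to 1.8 Mb had a mean residual of -0.66, and the window at 2.6 to 2.7 Mb had -0.60. Close behind was the window at 1.2 to 1.3 Mb, at -0.59. Without the dominant fragment, the mean residual was -0.63 at 2.5 to 2.6 Mb and -0.49 at 1.7 to 1.8 Mb. It was then -0.44 at 1.2 to 1.3 Mb, and -0.39 both at 2.6 to 2.7 Mb and at 1.0 to 1.1 Mb. By medians the lowest was the window at 2.3 to 2.4 Mb, at -1.26 ± 0.77 (SD, n = 4). Its 31 fragments were captured at 67.7% (SS 1), 74.2% (SS 2), 48.4% (SS13BN 1) and 83.9% (SS13BN 2), and their median reads were 2, 8, 0 and 4. The same window holds the fragments at 57906113 and 57912268, described above as high against their neighbours. Their ratios are thus taken against a low surrounding level. Median fragment lengths were 4697, 4055.5 and 5008.5 bp in the high windows at 1.8 to 1.9, 1.3 to 1.4 and 2.0 to 2.1 Mb. They were 3407, 1892, 1809 and 1891 bp in the low windows at 2.5 to 2.6, 1.7 to 1.8, 2.6 to 2.7 and 2.3 to 2.4 Mb. The window at 1.0 to 1.1 Mb, also below the line by mean residual, had 5015 bp. The part of length in the residuals was not tested.

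Short fragments were missed most often. Mean capture over the 4 libraries was 65.8% ± 9.85 (SD, n = 4) for fragments under 500 bp, 83.1% ± 10.1 from 500 to 1000 bp and 85.2% ± 4.00 from 1000 to 2000 bp. It was 91.8% ± 2.87 from 2000 to 5000 bp, 95.7% ± 1.5 from 5000 to 10000 bp and 98.7% ± 1.48 above that. Across the 380 fragments, Spearman's rho of reads with length was 0.39 (SS 1), 0.34 (SS 2), 0.38 (SS13BN 1) and 0.38 (SS13BN 2). With distance it was -0.44, -0.48, -0.54 and -0.52. These are descriptions across fragments, which share a library and are not independent replicates.

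**Figure D4:**
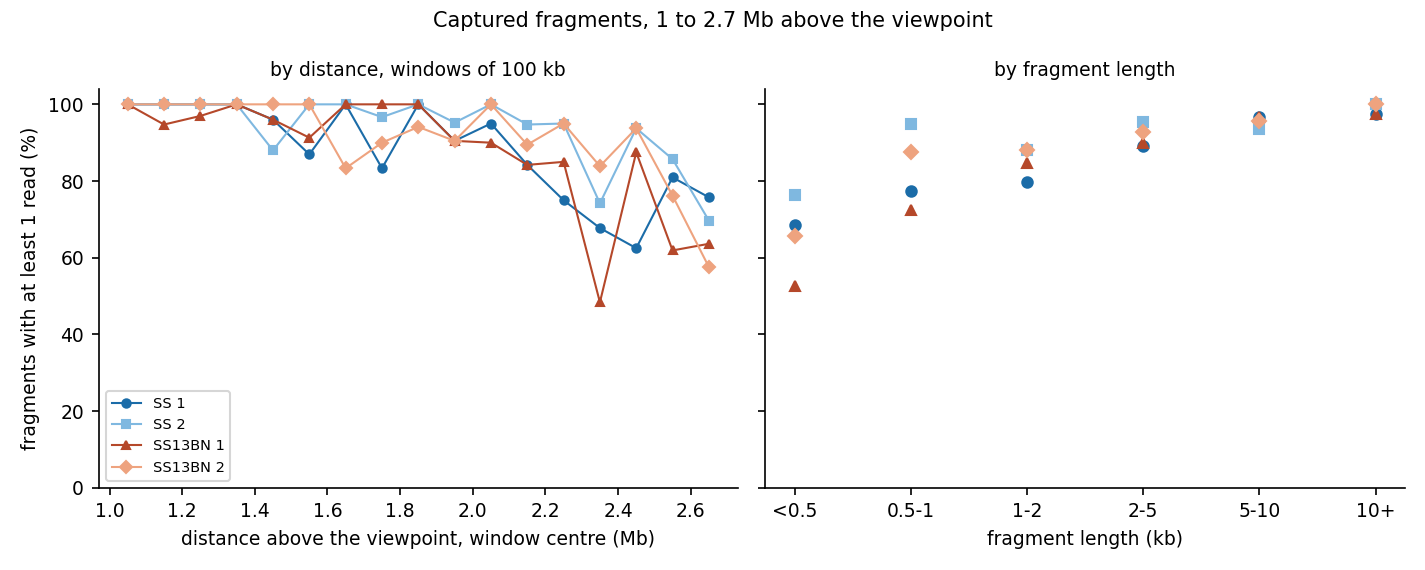
Percent of fragments with at least 1 read, by distance above the viewpoint in windows of 100 kb (left, Mb) and by fragment length (right, kb), with 1 marker per library. Capture is at least 94.7% in every window below 1.4 Mb. It is between 48.4% and 83.9% at 2.3 to 2.4 Mb and between 57.6% and 75.8% at 2.6 to 2.7 Mb. With length it rises from a mean of 65.8% to one of 98.7%.

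The stretch was captured by all 4 libraries at 269 fragments, or 70.8%. A further 71 fragments were captured by 3 libraries, 29 by 2 and 5 by 1. The median length fell in that order, from 4229 bp for fragments with reads in all 4 libraries to 2029, 974 and 738 bp. The 6 fragments without reads in any of the 4 libraries had a median length of 59 bp and all lay beyond 2 Mb. The longest of them runs from 58098864 and is 4303 bp long. The next, at 58255603, is 350 bp long, and the remaining 4, at 57881149, 57889006, 57911975 and 57741578, are 59, 59, 40 and 16 bp long. The 4303 bp fragment was the only one over 350 bp that no library captured.

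Runs of adjacent fragments without reads differed between libraries. The longest in SS13BN 2 spanned 8 fragments from 58233704 to 58253413, where SS 1, SS 2 and SS13BN 1 had 52, 154 and 63 reads. The longest in SS 1 spanned 4 fragments, and SS 1 had more than 1 run of that length. The first ran from 57314251 to 57330529, where SS 2, SS13BN 1 and SS13BN 2 had 131, 15 and 56 reads. Another, longer in bases, ran from 57982941 to 58002612. The longest in SS13BN 1 spanned 5 fragments from 57887816 to 57895672. Each of the runs bounded so far had reads in the other 3 libraries. SS 2 had no run longer than 2 fragments and 6 runs of that length. Of these, the run from 57889006 to 57889802 had no reads in SS 1 and SS13BN 1 either.

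A short tandem pattern of restriction sites lay in the window at 2.3 to 2.4 Mb, where mean capture over the 4 libraries was 68.5%. Capture was as weak in the window at 2.6 to 2.7 Mb, with a mean of 66.7%. Successive fragment lengths of 59, 738, 3979 and 1891 bp from 57881149 to 57887815 recur in the same order from 57889006 to 57895672, at an offset of 7857 bp. Of the 9 fragments from the first to the last of these, 4 (SS 1), 5 (SS 2), 1 (SS13BN 1) and 7 (SS13BN 2) were captured. None of them had more than 12 reads in any library. Reads from a duplicated sequence cannot always be placed, and the deposited tables do not say how such reads were treated. The part of this in the low values was not tested.

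Single fragments varied widely between libraries. Among the 269 fragments with reads in all 4 libraries, the highest scaled value was a median of 5.67 times the lowest. It was under 4 times in 85 fragments and at least 10 times in 79 fragments, or 29.4%. Between any pair of libraries the median fold was 2.15 to 2.59. Fragments with at least 20 reads in a library and at least 4-fold above every other library in scaled reads numbered 7 and 10 for the SS libraries and 6 and 4 for the SS13BN libraries. Spearman's rho of reads between pairs of libraries ranged from 0.43 to 0.64 over the 380 fragments of the stretch. Over fragments within 1 Mb of the viewpoint, where reads are more numerous, it ranged from 0.70 to 0.92. SS 1 with SS13BN 1 and SS 2 with SS13BN 2 were the highest pairs in both sets. Their values were 0.55 and 0.64 in the stretch, and 0.91 and 0.92 within 1 Mb. All these values are descriptions across fragments, and length and distance are shared by the libraries.

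No fragment of the stretch differed between the strains beyond this spread. Of 1360 fragments of the zone with a mean of at least 1 read before scaling, 369 lay in the stretch, so 11 of its 380 fragments were not tested. In limma with Benjamini-Hochberg adjustment over the 1360, 0 passed an adjusted p of 0.05 in the stretch and 0% in the zone. Libraries were not paired in this test. At an unadjusted p under 0.05 there were 5 in the stretch and 9 in the zone. The median log2 difference of SS13BN minus SS was -0.00 in the stretch and 0.03 over all fragments tested, with 184 fragments of the stretch higher in SS13BN and 185 lower. The median half-width of the 95% interval was 3.29 on the log2 scale, so even large differences at single fragments were not detectable with these libraries.

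The 3 fragments of the stretch with the smallest p illustrate the spread. The fragment from 58237400 to 58238795 had 18 and 103 reads in SS and 0 and 0 in SS13BN, a fitted log2 difference of -5.21 that depends on the pseudocount and is no bound. The fragment at 57364280 had 19 and 3 reads in SS and 89 and 60 in SS13BN, a log2 difference of 3.66 (SE 1.37). The fragment at 57969320 had 27 and 37 reads in SS and 0 and 1 in SS13BN, a log2 difference of -4.11 (SE 1.61). The strains did not overlap at any of the 3, and the adjusted p in limma was 0.9999 for each.

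The strains did not overlap in scaled reads at 47 of 369 fragments with both SS13BN libraries higher, or 12.7%, beside 12.3% of the whole zone and 12.1% of the zone outside the stretch. There were 51 with both lower, or 13.8%, beside 10.8% of the zone and 9.69% outside the stretch. Whether the stretch differs from the rest of the zone in these shares was not tested. Reads in both SS libraries and none in either SS13BN library were found on 4 of 380 fragments, beside 1.09% of the zone. These were the fragment at 58159542, with 1 and 5 reads in SS, and 3 adjacent fragments from 58236427 to 58238795. The first of the 3 had 11 and 2 reads in SS 1 and SS 2, the second had 9 and 24, and the third 18 and 103. All 3 fall within the run of 8 fragments that SS13BN 2 did not capture, and SS13BN 1 had its 63 reads of that run on other fragments. The opposite pattern was found on 0 fragments of the stretch and on 0.888% of the zone.

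**Figure D5:**
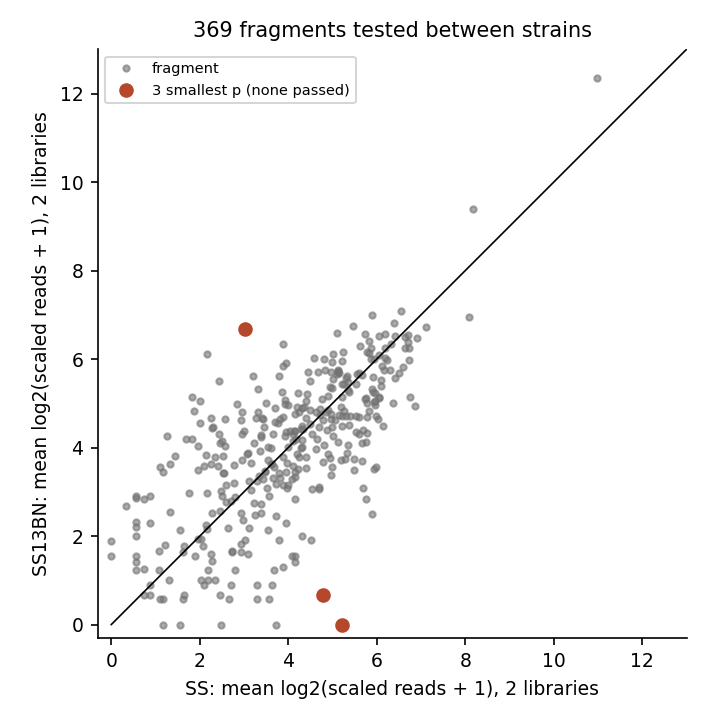
Mean log2 (scaled reads + 1) of the 2 SS13BN libraries against that of the 2 SS libraries for the 369 fragments tested, with the line of equal values and the 3 fragments of smallest p in red. Points scatter on both sides of the line, 184 above and 185 below, and the fragment at 1.84 Mb lies alone at the upper right.

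Strains were also compared over windows of 100 kb. In limma over 64 windows of the zone, 18 of which start in the stretch, 0 passed an adjusted p of 0.05 in the stretch and 0% in the zone, and 1 window had an unadjusted p under 0.05. That was the window at 1.8 to 1.9 Mb, with a log2 difference of SS13BN minus SS of 1.24 (SE 0.48, adjusted p = 0.85), which holds the fragment with 9727 reads in SS13BN 2. The next smallest p belonged to the windows at 1.6 to 1.7 Mb and 2.0 to 2.1 Mb, with log2 differences of -0.72 and -0.63. The median half-width was 0.92 for windows, so a difference under about that size could not be seen.

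The share of reads in the stretch did not separate the strains either. Of reads beyond 10 kb from the viewpoint, the stretch held 6.14% (SS 1), 7.26% (SS 2), 6.26% (SS13BN 1) and 13.2% (SS13BN 2). SS13BN 2 alone was high. Means by strain were 6.70% ± 0.790 (SD, n = 2) and 9.74% ± 4.91 (SD, n = 2), a difference of 3.03 percentage points (exact two-sided permutation test, p = 0.667). Without the fragment at 1.84 Mb the shares were 5.03%, 6.51%, 5.44% and 6.56%, and the difference was 0.230 points (exact p = 0.667). With the score of that fragment as listed the difference was 1.41 points, and without SS13BN 2 it turned to -0.441 points.

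The stretch was compared with the mirrored stretch, the 388 fragments at the same distances on the side of lower coordinates. Mean reads per fragment, as a ratio of the stretch to the mirrored stretch, were 0.866 (SS 1), 0.788 (SS 2), 0.798 (SS13BN 1) and 1.44 (SS13BN 2). The mean log2 ratio was -0.09 ± 0.42 (SD, n = 4; exact two-sided sign-flip permutation test, p = 0.625). It was -0.00 without SS 2 and -0.29 without SS13BN 2, so its size rests on single libraries. The fragment at 1.84 Mb was then left out of the stretch, while the mirrored stretch kept its highest fragments, which by itself lowers the ratio. The ratios were 0.702, 0.702, 0.689 and 0.667, lower in 4 of 4 libraries. Their mean log2 was -0.54 ± 0.03 (SD, n = 4; exact p = 0.125, the smallest that 4 libraries allow). With the 3 highest fragments left out of each stretch, the ratios were 0.658 (SS 1), 0.737 (SS 2), 0.679 (SS13BN 1) and 0.623 (SS13BN 2). Median reads were also lower in 4 of 4 libraries, at 0.706, 0.860, 0.750 and 0.813 times those of the mirrored stretch. Captured shares in the mirrored stretch were 89.2%, 92.5%, 88.9% and 91.2%, against 87.1%, 92.4%, 86.1% and 90.3% above the viewpoint. The highest fragment of the mirrored stretch had 275, 1844, 586 and 292 reads, below the fragment at 1.84 Mb in every library.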

How the data were processed

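For each library the authors deposited a table of EcoRI fragments and a score for each. The submitters' processing notes name build rn5 and CASAVA 1.8. How reads were aligned, filtered and scored is not given in the sources used here. Coordinates are those of the tables, which can differ by 1 base from a browser. Around the viewpoint, the deposited score equals a captured fragment's reads minus the mean, divided by the SD. Whole reads (within 0.01) were recovered by taking the lowest scored fragment as 1 read, for 100% of scored fragments in 3 libraries and all but 1 in SS13BN 2. Fragment bounds were the union over the 6 tables.

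Reads were scaled to the mean total beyond 10 kb of the viewpoint. Fragments or window sums with a mean of at least 1 read before scaling were tested. Strains were compared on log2(scaled reads + 1) with limma 3.58.1 and its intensity trend (R 4.3.3), Benjamini-Hochberg adjusted over the zone at 0.05. A fold on this scale understates low values. Single values used exact permutation tests. Residuals came from a line per library over 17 windows. limma was tested on simulated data.

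The text names the 3 highest and 3 lowest windows by residual, the 10 fragments with the highest mean scaled reads and the 5 with the highest ratio to their neighbours. It also names fragments past the threshold, or otherwise the 3 smallest p, fragments without reads and those at the bounds. Members, lists and tests were chosen with earlier results of these data known. Alternatives were other totals, pseudocounts, filters, window sizes and handling of the shifted score, each library left out, and a replicate block. Scripts ran under Python 3.11.15 with scipy 1.17.1, pandas 2.3.3, numpy 2.4.6 and matplotlib 3.10.9.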

Additional observations from a re-analysis of the deposited data

Results flagged for a closer look

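The tables of replicate 3 list the stretch at 0 and entered no comparison, but their merged intervals still carry a trace of capture, since neighbouring fragments without reads share an interval. Of 380 fragments, at least 157 (41.3%) and at most 269 (70.8%) were captured in SS 3. In SS13BN 3, at least 168 (44.2%) and at most 287 (75.5%) were captured. In the 4 scored libraries the same reading of the intervals gave at least 182 to 189 and at most 346 to 368, and the captured numbers were 327 to 351. The upper limits of both replicate 3 libraries thus lie below the captured numbers of every scored library. The fragments at 57407684 and 56934199 each have an interval of their own in both replicate 3 libraries, which does not show that they were captured.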

How the results depend on the processing

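The strain difference in the share of reads ranged from -0.441 to 6.51 points when single libraries were left out, against 3.03 with all, and turned sign without SS13BN 2. The difference in captured share ranged from -4.21 to 1.05 points, against -1.58, and turned sign without SS 2 (1.05) and without SS13BN 1 (0.526). Differences in slope kept their sign under 12 of 12 alternatives, but ranged from -0.57 to -0.14 with single libraries left out, against -0.35. The log2 ratio to the mirrored stretch kept its sign under 9 of 9 alternatives. With single libraries left out it ranged from -0.29 to -0.00, against -0.09 with all. Under the other alternatives this ratio ranged from -0.57, without the 3 highest fragments of each stretch, to -0.11 in reads per kb. Without the fragment at 57407684 it was -0.54. The count of fragments that differed between strains was 0 under 15 of 15 alternatives, and that of windows was 0 under 15 of 16. With the replicate number as a block, 1 window passed (smallest adjusted p in limma 0.0436) and 0 fragments did. The labels do not say that replicate numbers pair the libraries, and with 2 pairs this cannot be settled. Deviations of same-numbered libraries from their strain means correlated at 0.25 over 369 fragments, and Spearman's rho of reads was 0.55 for SS 1 with SS13BN 1 and 0.64 for SS 2 with SS13BN 2, against 0.43 to 0.47 for the other pairs. Within 1 Mb of the viewpoint these were 0.91 and 0.92, against 0.70 to 0.74, a hint from the data that the design does not state. Medians of 12 to 37 reads limit single fragments, 2 libraries per strain limit every test, and the fragment at 57407684 in SS13BN 2 rests on a corrected score.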
